A study of Mus musculus with 4 samples.

Results

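The genes described here are 43 mouse genes that supply translation with charged tRNA and with amino acids, together with the transcription factor ATF4 and several of its stress targets. They were taken by gene name from the table of gene counts, and all 43 were found among its 41342 named genes. They comprise 20 cytosolic aminoacyl-tRNA synthetases, 9 amino acid transporters, 4 enzymes of asparagine and serine synthesis, 5 folate enzymes of one-carbon metabolism and 5 genes of the ATF4 stress response.

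An aminoacyl-tRNA synthetase couples an amino acid to its own tRNA, so that each amino acid needs its enzyme before the ribosome can use it. When amino acids run short or proteins misfold, kinases phosphorylate the initiation factor eIF2α, most translation slows, and the mRNA of Atf4 is translated more efficiently. ATF4 then binds DNA as a dimer with a C/EBP family protein and switches on genes for amino acid import, amino acid synthesis and tRNA charging. Resting B lymphocytes are small, quiescent cells, and LPS, a bacterial lipopolysaccharide, makes them grow, divide and begin to secrete antibody.

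The libraries came from ΔleftPAL and ΔIRIS mice of the strain 129, aged 8 to 12 weeks, whose germline changes lie in the regulatory region 3′ of the immunoglobulin heavy chain locus. ΔleftPAL mice lack the enhancers hs3a and hs1,2 and the inverted repeat sequence IRIS between them, whereas ΔIRIS mice carry the same deletion with hs3a, in inverted orientation, and hs1,2 put back, and so lack only IRIS. Splenic B cells, purified by removal of CD43-positive cells, gave 1 resting library in each genotype and 1 library after 48 h with 5 μg per ml LPS, each from B cells pooled over 4 animals according to the labels, although the study describes the pooling in more than 1 way. The wt libraries were not analysed here. No group had a replicate library, so that the fit described below measures the LPS response against its difference between the genotypes, moderated over all genes. For the same reason intervals cover counting error only. They may be too narrow even for that, because amplified copies of a molecule were counted as separate fragments.

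The 4 libraries held between 23621743 and 29778717 counted fragments, and a floor of 3 counts corresponded to 0.102 to 0.123 CPM (counts scaled to a common library sum with TMM factors). The 6 B cell markers summed to 3855 and 3269 CPM in resting ΔleftPAL and ΔIRIS cells and to 2303 and 2464 CPM after LPS, with none at 0. Red cell RNA was present at rest and nearly absent after LPS. The 5 erythroid markers, globins among them, took 3.44% and 2.42% of the counts in resting ΔleftPAL and ΔIRIS cells, and 0.00509% and 0.0107% after LPS. The 6 myeloid markers summed to 294 and 392 CPM at rest and to 6.90 and 16.0 CPM after LPS, when S100a8 and S100a9 were at 0 in both libraries. Itgam held most of both sums after LPS, at 5.20 CPM in ΔleftPAL and 15.35 CPM in ΔIRIS cells. It was lower after LPS than at rest in ΔleftPAL cells but higher in ΔIRIS cells, whereas the other myeloid markers were lower in both genotypes. The 6 T cell markers summed to 23.3 and 27.5 CPM at rest and to 0.408 and 0.341 CPM after LPS, when Cd3d, Cd3e and Cd3g were at 0. The part of these other cells in the results below was not tested, and in bulk RNA fewer cells of a type cannot be told apart from less RNA per cell. The 8 proliferation markers summed to 549 and 4134 CPM in ΔleftPAL cells and to 665 and 4581 CPM in ΔIRIS cells, at rest and after LPS. The 6 plasmablast markers summed to 625 and 1815 CPM in ΔleftPAL and to 897 and 1279 CPM in ΔIRIS cells. Without Irf4 the other 5 summed to 341 and 1357 CPM in ΔleftPAL and to 293 and 887 CPM in ΔIRIS cells.

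To show the sequence through which ATF4 is known to act, the promoters were searched for the C/EBP-ATF response element, written as TGATGNAA and read on both strands. RefSeq promoter windows of the build GRCm38.p6, which reach from 250 bases before to 50 bases after a start site, were found for 33 of the 43 genes. The motif was present in 10 of these 33 (30.3%), at 12 sites, whereas 4.51% of the 27025 genes of the table held it. By role it was found in 5 of 13 synthetases, 2 of 6 transporters, 1 of 4 genes of asparagine and serine synthesis, 0 of 5 folate enzymes and 2 of 5 genes of the stress group. The 30 bases around the site are given for 6 genes whose mRNA rose with LPS, 5′ to 3′ on the strand of the gene, with the motif or its reverse complement in capitals.
Gars, chr6:55037960-55037989, + strand: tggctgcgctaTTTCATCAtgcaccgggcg
Iars, chr13:49682126-49682155, + strand: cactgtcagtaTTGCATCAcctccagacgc
Tars, chr15:11399655-11399684, - strand: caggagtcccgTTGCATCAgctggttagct
Yars, chr4:129189895-129189924, + strand: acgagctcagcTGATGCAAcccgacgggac
Slc1a4, chr11:20332699-20332728, - strand: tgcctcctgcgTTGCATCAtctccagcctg
Asns, chr6:7693214-7693243, - strand: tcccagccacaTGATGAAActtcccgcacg
The first base of the motif lay at -30 relative to the RefSeq start in Gars, 8 in Iars, -15 in Tars, 4 in Yars, -4 in Slc1a4 and -23 in Asns. The other sites included a pair in Slc7a11 (-66 and -47) and single sites in Chac1 (-193) and Trib3 (15). A match is a description of the letters in this window and not a measured binding site.

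The mRNA of most of these genes was higher after culture with LPS, relative to the other transcripts of the cell. The resting cells were taken fresh, without culture, so that the effects of LPS and of 48 h in culture cannot be told apart, and a change after LPS means both. A quasi-likelihood fit in edgeR with genotype and condition as terms called 32 of the 41 genes with enough counts higher after LPS at a Benjamini-Hochberg adjusted p under 0.05 over all 11286 genes tested, and this call was made for 36.4% of all genes. Only Slc38a2 and Ddit3 were called lower in that fit, a call made for 27.9% of all genes, and 7 genes were not called. The median log2 change was 1.62 over the 41 genes and 0.12 over all genes. These changes are relative to the sum of each library and depend on that scale. Scaled to the counts of Gapdh, a glycolytic gene whose own CPM rose by log2 2.65 and 2.98 in ΔleftPAL and ΔIRIS cells, 1 gene was called higher and 34 lower, and 1.21% of all calls were higher on that scale.

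Counted by size, 26 genes were at least 2-fold higher after LPS in both genotypes, against 17.3% of all genes, and Ddit3 alone was at least 2-fold lower in both, against 13.1% of all genes. In ΔleftPAL cells alone 27 genes were at least 2-fold higher (20.1% of all genes) and 1 lower (15.5%), and in ΔIRIS cells alone 30 were higher (21.6%) and 3 lower (17.3%). The plot of the LPS change by role shows the order of the groups.

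**Figure D1:**
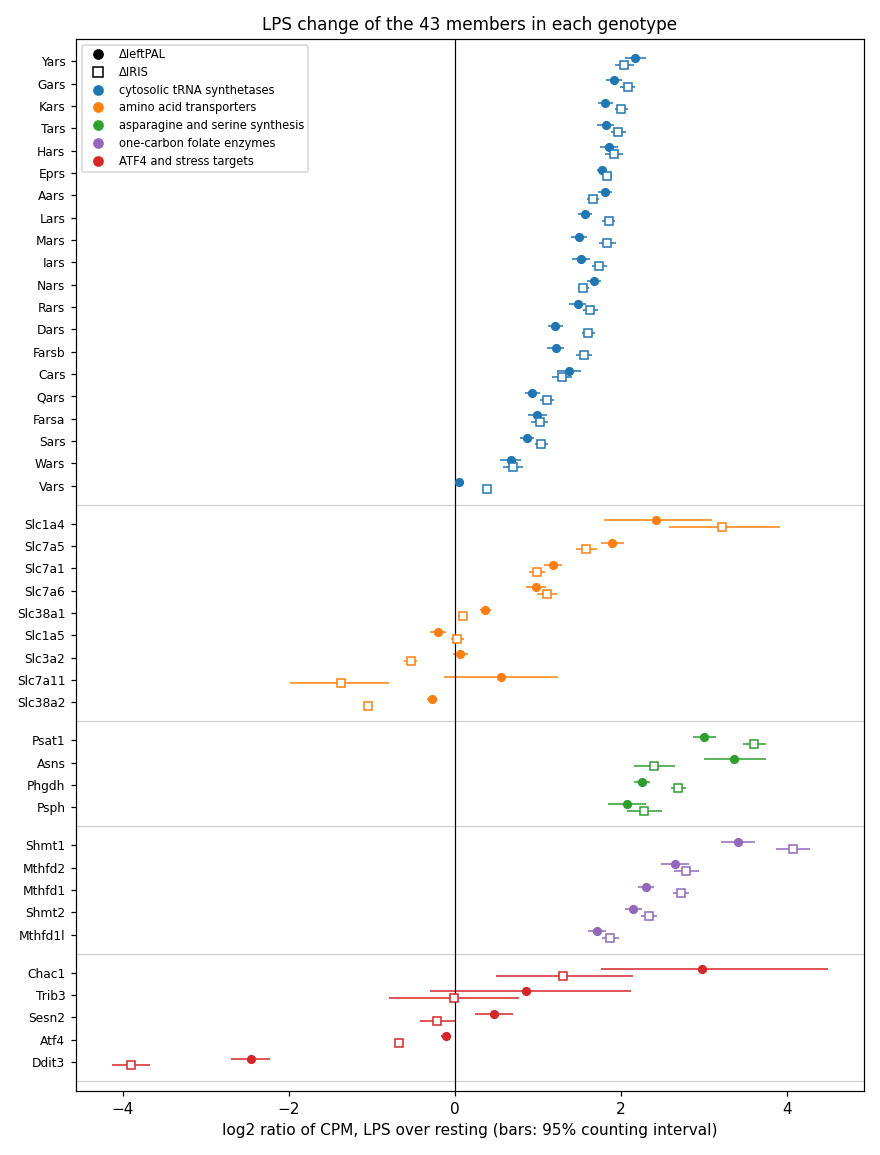
Each row is a gene and each point its log2 ratio of TMM-scaled CPM, LPS over resting cells, in ΔleftPAL (filled circles) and ΔIRIS (open squares) cells, with bars for the 95% counting interval and colours for the role. On this scale 19 of 20 synthetases and all 9 enzymes of asparagine, serine and one-carbon metabolism were called higher, against 36.4% of all genes. The transporters lie on both sides of 0, and Ddit3 lies farthest to the left. Scaled to Gapdh, 1 gene was called higher.

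On the TMM scale the cytosolic synthetases rose with 1 exception, whereas scaled to Gapdh all 20 had values below 0. Their summed level was 1251 CPM at rest and 3073 CPM after LPS in ΔleftPAL cells, 2.46-fold higher, and 1197 and 3344 CPM in ΔIRIS cells, 2.79-fold higher. Of the 20 enzymes, 19 were called higher, against 36.4% of all genes, and Vars was not called, with a median log2 change of 1.62. Each of the 19 was higher in both LPS libraries than in either resting library.

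Yars, which charges tRNA with tyrosine (chr4:129189760-129219607 in the mm10 gene model), had the largest change of the synthetases in the fit. Its level in ΔleftPAL cells was 25.3 CPM at rest and 114 CPM after LPS, and 27.0 and 110 CPM in ΔIRIS cells. Both LPS values lay far above both resting values, and the fit gave a log2 change of 2.10 ± 0.13 (SE), or 4.29-fold, with an edgeR adjusted p of 0.000239. By kallisto TPM the change was smaller, from 23.7 to 62.5 TPM and from 30.5 to 58.2 TPM, and below that of Gars. Gars, the glycine enzyme, was next. It was measured at 43.9, 165, 43.8 and 185 CPM in ΔleftPAL cells at rest and after LPS and then in ΔIRIS cells at rest and after LPS, the order used for all values in 4 libraries below. The fit gave 1.99 ± 0.13 (edgeR adjusted p = 0.000281).

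Eprs, which joins the glutamate and proline enzymes in 1 protein, was measured at 115, 390, 123 and 439 CPM. Aars, the alanine enzyme, was measured at 66.3, 232, 79.1 and 250 CPM. Both enzymes showed nearly the same rise in the 2 genotypes by gene counts, with a log2 change of 1.77 and 1.83 for Eprs and of 1.81 and 1.66 for Aars in ΔleftPAL and ΔIRIS cells. By kallisto TPM the mean log2 change was 1.14 for Eprs and 1.09 for Aars.

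The other end of the group held Sars, Wars and Vars. Sars, the serine enzyme, was measured at 70.4, 128, 67.1 and 137 CPM, a log2 change of 0.95 ± 0.13 (edgeR adjusted p = 0.00204). Wars, the tryptophan enzyme (chr12:108860030-108894174), was measured at 32.5, 51.8, 31.6 and 51.2 CPM. It had the smallest change among the synthetases called, 0.68 ± 0.12 on the log2 scale or 1.61-fold (edgeR adjusted p = 0.0052), and its values were alike in the 2 genotypes.

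Vars, the valine enzyme (chr17:35000987-35016322), stood apart. Its level was 289, 300, 225 and 293 CPM, so that only the resting ΔIRIS library was clearly lower than the rest. The fit gave 0.22 ± 0.14, with an edgeR adjusted p of 0.212. Per unit of transcript length, as TPM summed over its transcripts, Vars was the highest of the 20 cytosolic synthetases in every library, at 170, 131, 115 and 119 TPM. The coding transcript Vars-201 held 63.1, 62.8, 54.9 and 62.5 TPM of these, and much of the rest lay in short or retained-intron transcripts. After LPS Vars-201 was below Kars-201, at 95.6 TPM in ΔleftPAL and 102 TPM in ΔIRIS cells, so that this order rests on the sum.

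The remaining synthetases filled the range between. By kallisto TPM the median log2 change of the 20 enzymes was 1.08, and that of Aars, Cars, Eprs, Iars, Qars and Yars was over 1.5 times smaller in fold than by gene counts, down to 0.10 for Qars. Outside the synthetases the fold was over 1.5 times smaller by TPM for Slc7a5, Psat1 and Shmt1, and Slc7a11 had a larger fall by TPM. For Slc1a4 the measures cannot be compared in this way. Its resting levels of 0.347 and 0.236 TPM lay below the 0.5 added to each TPM value, which shrinks its change. Per length, the median of the 20 enzymes was 28.5 TPM at rest and 67.5 TPM after LPS in ΔleftPAL cells, and 29.0 and 69.6 TPM in ΔIRIS cells. Without Vars the level after LPS spanned 22.3 TPM for Wars to 108 TPM for Kars in ΔleftPAL cells, and 22.1 TPM for Wars to 115 TPM for Kars in ΔIRIS cells. Kars, the lysine enzyme, was thus among the middle of the group at rest, where it ranked at place 7 and 8, and second after LPS in both genotypes.

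The synthetases of mitochondria, most of which have genes of their own, were looked at beside them. Of 17 listed genes, 16 were in the table, 8 were called higher, against 36.4% of all genes, and the other 8 were not called, and the median log2 change was 0.56. Ears2, the glutamate enzyme, had the lowest value, at 16.3, 11.3, 10.7 and 9.69 CPM and a log2 value of -0.33 ± 0.19 (edgeR adjusted p = 0.181). The difference between the 2 sets of enzymes was not tested. The 3 proteins that hold several cytosolic synthetases in a complex were all called higher, Aimp2 by 2.04 ± 0.17 and Aimp1 by 1.16 ± 0.12 on the log2 scale.

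On the TMM scale 4 of the 9 transporters were called higher, 1 lower and 4 were not called, against 36.4% and 27.9% of all genes called higher and lower. The median log2 change of the 9 was 0.23, and scaled to Gapdh the 4 risers had values below 0. The summed level of the 9 was 565 and 708 CPM in ΔleftPAL cells and 833 and 757 CPM in ΔIRIS cells, opposite directions in the 2 genotypes. By kallisto TPM, which carried no TMM factors, both sums fell, from 222 to 215 in ΔleftPAL and from 288 to 219 in ΔIRIS cells. The resting ΔIRIS library held the highest sum.

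Slc7a5 and Slc3a2 encode the light and the heavy chain of LAT1, the exchanger that brings leucine and other large neutral amino acids into activated lymphocytes, and the pair did not change alike. Slc7a5 was measured at 21.5, 79.8, 23.6 and 70.5 CPM, higher in both LPS libraries, with a log2 change of 1.74 ± 0.14 (edgeR adjusted p = 0.000434). By kallisto TPM it was smaller, at 23.8, 36.5, 12.4 and 29.5 TPM. Slc3a2 was measured at 79.2, 82.7, 122 and 84.5 CPM, where 3 libraries lay close together and resting ΔIRIS cells were above them. The fit gave -0.24 ± 0.18 (edgeR adjusted p = 0.29), since the log2 change was 0.06 in ΔleftPAL cells (95% counting interval -0.03 to 0.15) and -0.53 in ΔIRIS cells (-0.61 to -0.46). The value of Slc3a2 was -0.57 without the resting ΔleftPAL library and 0.07 without the resting ΔIRIS library, fits that hold 1 resting library.

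Of the carriers of cationic amino acids among the 9 transporters, both rose on the TMM scale. Slc7a1, a carrier of arginine and lysine, was measured at 40.6, 91.7, 45.4 and 89.8 CPM, a log2 change of 1.08 ± 0.13 (edgeR adjusted p = 0.00124). Slc7a6, which exchanges cationic for neutral amino acids with Slc3a2 as its partner, was measured at 31.8, 62.5, 31.1 and 67.0 CPM, a log2 change of 1.04 ± 0.12 (edgeR adjusted p = 0.00127). For both genes the 2 genotypes differed little at either stage.

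Slc1a4, a carrier of alanine, serine and cysteine (chr11:20302180-20332713), had the largest change of the transporters from a low level. It was measured at 1.02, 5.46, 0.757 and 6.99 CPM, and the fit gave 2.80 ± 0.34, or 6.99-fold (edgeR adjusted p = 0.00138). Slc1a5, which carries glutamine, was measured at 78.2, 67.9, 95 and 96.8 CPM and was not called, at -0.09 ± 0.13 (edgeR adjusted p = 0.589). After LPS the ΔIRIS library was higher by a log2 ratio of 0.51 (95% counting interval 0.43 to 0.60).

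The system A carriers of small neutral amino acids gave a different picture. Slc38a1 was measured at 126, 163, 160 and 171 CPM, a log2 value of 0.23 ± 0.13 (edgeR adjusted p = 0.184). From kallisto estimated counts it was called higher (0.36, edgeR adjusted p = 0.0435). Its value was 0.39 without the resting ΔIRIS library and 0.04 without the resting ΔleftPAL library, fits that hold 1 resting library. Slc38a2 (chr15:96687394-96699698) was measured at 185, 153, 352 and 170 CPM, where the resting ΔIRIS library alone stood out. It was called lower, at -0.66 ± 0.21 (edgeR adjusted p = 0.0359). This call was lost without the genotype term (-0.73, edgeR adjusted p = 0.0743) and with TMM factors computed without immunoglobulin genes (-0.66, edgeR adjusted p = 0.0527). Without the resting ΔIRIS library the value shrank to -0.21 and the call was lost. The call was also lost without the LPS ΔleftPAL library (-0.66) and without the LPS ΔIRIS library (-0.81), although the value stayed about as large or was larger. The fall was present in both genotypes, by 0.28 on the log2 scale in ΔleftPAL and by 1.05 in ΔIRIS cells.

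Slc7a11, the cystine carrier, rested on few reads, with 31, 50, 90 and 35 counts. Its log2 change was 0.55 in ΔleftPAL cells (95% counting interval -0.13 to 1.24) and -1.37 in ΔIRIS cells (-1.98 to -0.80), and it was not called (edgeR adjusted p = 0.48). The gene counts were 8.75% to 24.6% of the kallisto estimates of the same gene, which lay mostly in a transcript with a retained intron, so that its values are uncertain. From those estimates it was called lower, at -0.90 (edgeR adjusted p = 0.0071).

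Of 14 other amino acid transporters listed, 11 had enough counts, of which 3 were called higher and 8 lower (36.4% and 27.9% of all genes), with a median log2 change of -0.97. Slc7a3, a cationic amino acid transporter, was nearly absent at rest, with 6 and 3 counts, and reached 20.8 and 16.7 CPM after LPS. The cationic carriers Slc7a7 and Slc7a2, named after their values were seen, went the other way. Slc7a7 was called lower, at 15.9, 6.42, 18.4 and 5.97 CPM and -1.47 ± 0.19 on the log2 scale (edgeR adjusted p = 0.00178), and Slc7a2, under the count minimum, had 59, 4, 80 and 0 counts. Slc16a10, a carrier of aromatic amino acids, fell from 23.7 to 3.90 CPM in ΔleftPAL and from 31.7 to 4.23 CPM in ΔIRIS cells.

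The 4 genes that make asparagine and serine were all called higher on the TMM scale, against 36.4% of all genes. Of the 4, Phgdh and Psph had values below 0 when scaled to Gapdh. Together they had 73.2 CPM at rest and 418 CPM after LPS in ΔleftPAL cells, 5.71-fold higher, and 65.9 and 492 CPM in ΔIRIS cells, 7.46-fold higher. Phgdh, Psat1 and Psph catalyse the successive steps from 3-phosphoglycerate to serine.

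Psat1, the aminotransferase of the pathway (chr19:15904678-15947337), was measured at 18.1, 145, 15.1 and 183 CPM, the largest fitted change of this group, although Asns changed more in ΔleftPAL cells. The fit gave 3.30 ± 0.20, or 9.85-fold (edgeR adjusted p = 0.000222). Phgdh, the dehydrogenase of the first step, was measured at 44.4, 211, 37.6 and 242 CPM, a log2 change of 2.47 ± 0.16 (edgeR adjusted p = 0.00028). Per length Phgdh rose from 42.0 to 156 TPM and from 37.6 to 173 TPM, when it held place 2 of the 43 genes in ΔleftPAL and place 1 in ΔIRIS cells. Psph, the phosphatase of the last step, changed least of the 4, at 7.94, 33.4, 7.57 and 36.6 CPM and 2.17 ± 0.15 (edgeR adjusted p = 0.000316).

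Asns, which makes asparagine from aspartate and glutamine and whose promoter site is printed above (gene at chr6:7675169-7693254), was scarce at rest. It was measured at 2.74, 28.1, 5.74 and 30.2 CPM, so that the LPS libraries lay close together and the resting libraries apart. The fit gave 2.84 ± 0.27, or 7.16-fold (edgeR adjusted p = 0.000652), with a log2 change of 3.35 in ΔleftPAL and 2.4 in ΔIRIS cells.

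The folate enzymes, which pass 1-carbon units from serine to purines and thymidylate, were all called higher on the TMM scale, against 36.4% of all genes. Scaled to Gapdh, the 4 enzymes other than Shmt1 had values below 0. Their sum was 135 and 654 CPM in ΔleftPAL cells, 4.84-fold higher, and 122 and 726 CPM in ΔIRIS cells, 5.94-fold higher. The cytosolic and the mitochondrial branch of the pathway both took part.

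Shmt1, the cytosolic serine hydroxymethyltransferase (chr11:60788104-60811718), had the largest LPS change of the 41 genes tested in the gene counts. It was measured at 8.68, 91.8, 7.02 and 117 CPM, and the fit gave 3.73 ± 0.21, or 13.3-fold (edgeR adjusted p = 0.000197). Its gene counts were 44.0% of the kallisto estimates in resting ΔIRIS cells and 98.7% after LPS, and its rise was smaller per kallisto TPM, from 18.4 to 60.9 TPM and from 19.8 to 66.4 TPM. By TPM Psat1, Asns and Mthfd2, among others, had larger changes. Shmt2, the mitochondrial form, was measured at 38.7, 171, 35.1 and 176 CPM, a log2 change of 2.24 ± 0.14 (edgeR adjusted p = 0.000236).

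Mthfd2, the mitochondrial dehydrogenase and cyclohydrolase, was measured at 13.4, 84.1, 14.1 and 97.1 CPM, a log2 change of 2.71 ± 0.13 (edgeR adjusted p = 0.000161). Mthfd1, the cytosolic enzyme with 3 activities, was measured at 39.5, 194, 32.2 and 212 CPM. Mthfd1l, the mitochondrial formyl-tetrahydrofolate synthetase, had the smallest change of the group, at 34.7, 113, 33.7 and 123 CPM and 1.79 ± 0.13 (edgeR adjusted p = 0.000336). For all 5 enzymes both LPS libraries lay above both resting libraries.

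In a list of 22 other genes of amino acid and folate metabolism, 16 had enough counts, of which 13 were called higher and 1 lower (36.4% and 27.9% of all genes), with a median log2 change of 1.84. Cth, which makes cysteine from cystathionine, had the largest change from 7 and 3 counts at rest to 135 and 103 counts after LPS. Glul, glutamine synthetase, was the gene called lower, at 104, 43.4, 140 and 44.7 CPM and -1.46 ± 0.15 on the log2 scale (edgeR adjusted p = 0.000813).

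Of the stress group 3 genes had enough counts, of which Ddit3 was called lower, a call made for 27.9% of all genes, and Atf4 and Sesn2 were not called. None was called higher, against 36.4% of all genes. Their median log2 change was -0.39, and the sum of the 5 genes was 297 and 255 CPM in ΔleftPAL cells and 481 and 257 CPM in ΔIRIS cells.

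Atf4 (chr15:80255184-80257540) was measured at 249, 230, 379 and 237 CPM. The libraries other than resting ΔIRIS lay within a narrow range, and the fit gave -0.39 ± 0.17 (edgeR adjusted p = 0.0902). The call changed with the processing. Atf4 was called lower with DESeq2 size factors (-0.54, edgeR adjusted p = 0.0379) and by the DESeq2 Wald test (-0.54, DESeq2 adjusted p = 0.0219). The value was -0.72 without the resting ΔleftPAL library and -0.10 without the resting ΔIRIS library, fits that hold 1 resting library. Per length Atf4 was the highest of the 43 genes at rest, at 205 TPM in ΔleftPAL and 305 TPM in ΔIRIS cells, and stood at 160 TPM in both after LPS. These values are mRNA levels, and ATF4 is controlled largely through translation of that mRNA, which was not measured.

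Ddit3 encodes CHOP, a transcription factor of prolonged endoplasmic reticulum stress (chr10:127290774-127296288). It was measured at 36.7, 6.68, 86.9 and 5.83 CPM, so that both resting libraries lay far above both LPS libraries. The fit gave -3.18 ± 0.36, or 9.07-fold lower (edgeR adjusted p = 0.00111), with a fall by 2.46 on the log2 scale in ΔleftPAL and by 3.90 in ΔIRIS cells. The 3′ end of Ddit3 overlaps that of Mars on the opposite strand (chr10:127296221-127311786), and the authors counted by strand. Mars, the methionine enzyme, moved in the opposite direction, at 44.3, 124, 36.0 and 128 CPM.

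Sesn2, a leucine sensor upstream of mTORC1, was measured at 11.2, 15.5, 13.8 and 11.9 CPM and was not called (0.13 ± 0.22, edgeR adjusted p = 0.645). Chac1, which degrades glutathione, had 6, 52, 19 and 47 counts, and Trib3, a pseudokinase that restrains ATF4, had 10, 20, 30 and 30 counts. Both lay under the minimum mean of 50 counts and were not tested. The log2 change of Chac1 was 2.97 in ΔleftPAL cells (95% counting interval 1.76 to 4.48) and 1.29 in ΔIRIS cells (0.50 to 2.15), whereas for Trib3 both intervals held 0.

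**Figure D2:**
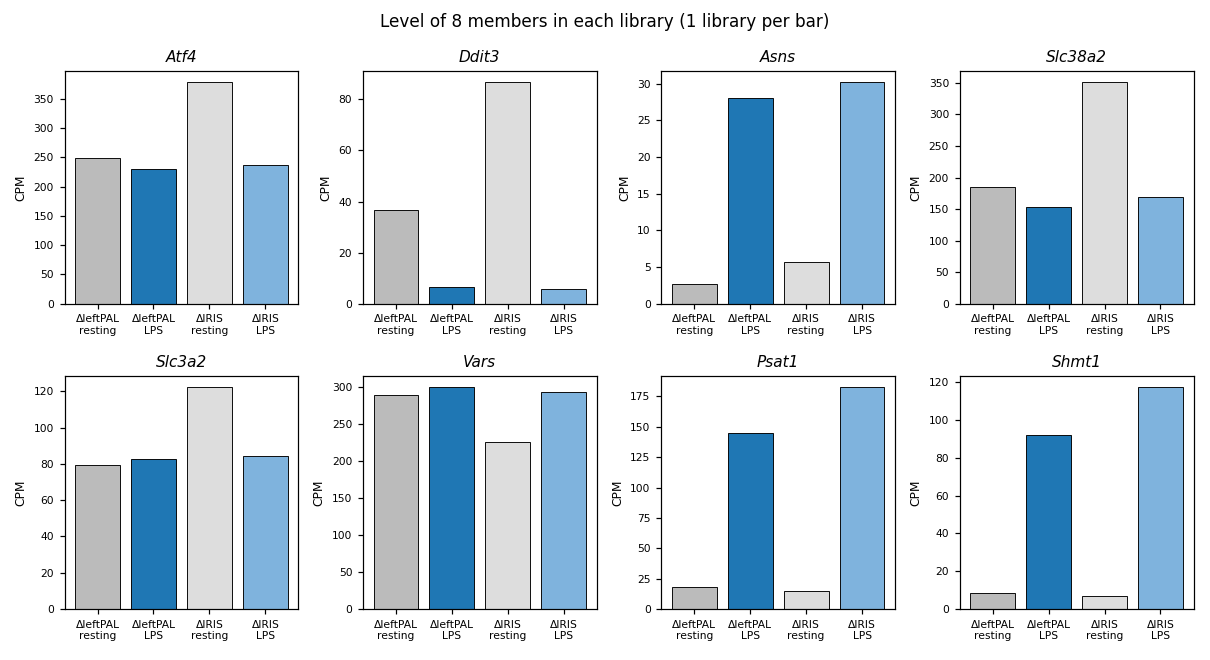
Bars give the TMM-scaled CPM of 8 genes in each of the 4 libraries, 1 library per bar, on linear axes that start at 0 and differ between panels. Atf4, Ddit3, Slc38a2 and Slc3a2 are highest in resting ΔIRIS cells, Psat1, Shmt1 and Asns are high in both LPS libraries, and Vars is lowest in resting ΔIRIS cells.

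Other genes of the stress response were mixed. Among 7 genes for eIF2α kinases, phosphatase subunits and a kinase inhibitor, 2 were called higher and 4 lower, against 36.4% and 27.9% of all genes, with a median log2 change of -0.54. Ppp1r15a, a phosphatase subunit that ends the response, was measured at 250, 27.0, 339 and 23.4 CPM, a log2 change of -3.53 ± 0.20 (edgeR adjusted p = 0.00021). Eif2ak2, the kinase activated by double-stranded RNA, was measured at 33.5, 43.4, 22.9 and 56.2 CPM, a log2 change of 0.83 ± 0.24 (edgeR adjusted p = 0.027). In a list of 14 other genes linked to ATF4, 10 had enough counts, of which 4 were called higher and 5 lower, against 36.4% and 27.9% of all genes, with a median of -0.61. Xpot, the exporter of tRNA from the nucleus, had the largest rise, at 43.3, 118, 42.8 and 135 CPM. Gdf15, a secreted stress factor, had the largest fall, from 2.25 to 0.186 CPM and from 7.60 to 0.136 CPM.

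The 2 genotypes were then compared at each stage, with 1 pooled library per genotype and no test. At rest 6 of the 41 genes were at least 1.5-fold higher in ΔIRIS than in ΔleftPAL cells, against 6.74% of all genes, and 0 were lower by that much, against 4.27%. The 6 genes were Ddit3, Asns, Slc7a11, Slc38a2, Slc3a2 and Atf4. Of these, Slc7a11, with 31, 50, 90 and 35 counts, passed the minimum mean of 50 counts only through the resting ΔIRIS library. Its place in this count is thus no separate finding. After LPS 0 genes were past this size in either direction, against 1.96% and 4.50% of all genes.

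Ddit3 had the largest of these differences among the genes with more than 100 counts in both libraries, a log2 ratio of 1.24 (95% counting interval 1.13 to 1.35) at rest and of -0.20 (-0.51 to 0.11) after LPS. Asns gave 1.07 (0.65 to 1.5) at rest and 0.11 (-0.03 to 0.25) after LPS. Slc38a2 gave 0.93 (0.88 to 0.98) and 0.15 (0.09 to 0.21). Each of these was apart at rest and close after LPS.

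Slc3a2 gave 0.63 (0.55 to 0.71) at rest and 0.03 (-0.05 to 0.11) after LPS, and Atf4 gave 0.61 (0.56 to 0.65) and 0.04 (-0.01 to 0.09). Slc7a11 gave 1.29 (0.68 to 1.92) at rest from 31 and 90 counts, but the ratio was -0.16 from kallisto estimated counts. The genes under the count minimum, Chac1 and Trib3, were also higher in resting ΔIRIS cells, by 1.41 (0.03 to 3.02) and 1.33 (0.26 to 2.53), with 6 and 19 and with 10 and 30 counts.

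For the synthetases no ratio reached 1.5-fold. Its median was -0.02 at rest, 9 of the 20 were higher in ΔIRIS cells, against 50% of all genes, and the extremes were -0.36 for Vars and 0.26 for Aars. After LPS the median was 0.11 and 16 of 20 were higher in ΔIRIS cells, while 54.9% of all genes were. The highest ratios after LPS were 0.42 (0.36 to 0.48) for Dars and 0.34 (0.27 to 0.41) for Iars. The folate enzymes were between -0.31 for Shmt1 and 0.07 for Mthfd2 at rest.

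**Figure D3:**
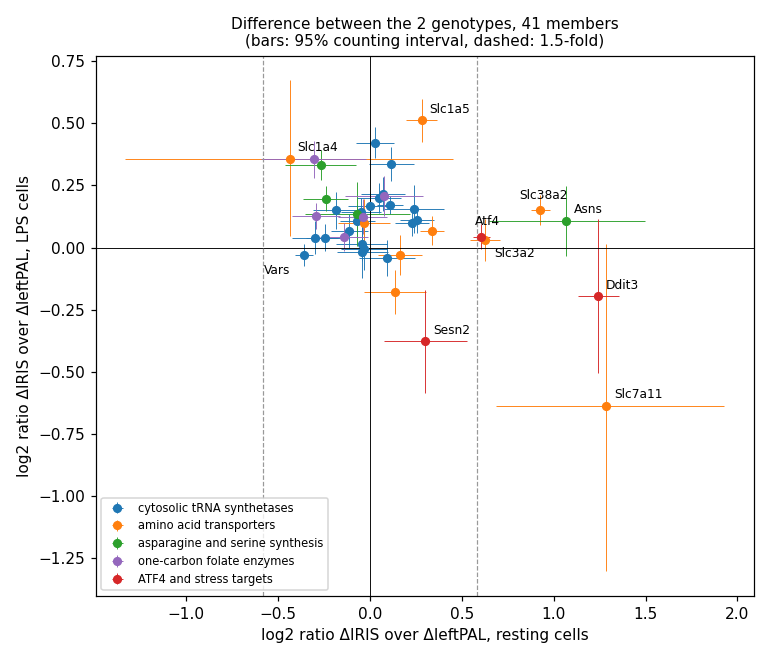
Each point is 1 of the 41 genes tested on LPS, with its log2 ratio of ΔIRIS over ΔleftPAL in resting cells on the x axis and in LPS-activated cells on the y axis, bars for 95% counting intervals and dashed lines at 1.5-fold. The 6 genes right of the dashed line are Ddit3, Asns, Slc7a11, Slc38a2, Slc3a2 and Atf4, and the synthetases cluster near 0 on both axes. Slc7a11 passed the count minimum only through its counts in resting ΔIRIS cells.

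Stress genes outside the 43 gave mixed values at rest, with a median log2 ratio of ΔIRIS to ΔleftPAL of 0.39 in the eIF2α list and 0.09 in the other list linked to ATF4. Atf3, a factor induced with Atf4, was measured at 76.9 and 227 CPM in resting ΔleftPAL and ΔIRIS cells, a log2 ratio of 1.56 (95% counting interval 1.49 to 1.64), and at 13.9 and 14.5 CPM after LPS. Eif2ak3, the kinase PERK of the endoplasmic reticulum, was measured at 105 and 179 CPM at rest, and Ddit4, an inhibitor of mTORC1, went the other way at 20.9 and 11.1 CPM. Eif2ak3, Atf3 and Ddit4 were picked here after their values were seen. The resting libraries also differed in the sum of 6 plasmablast markers (625 and 897 CPM, with none at 0, but 341 and 293 CPM without Irf4), in the myeloid sum (294 and 392 CPM, with Lyz2 and Csf1r higher and S100a8, S100a9 and Itgam lower in ΔIRIS cells), in the erythroid sum (34411 and 24248 CPM) and in the share of counts on the mitochondrial ribosomal RNA gene mt-Rnr2 (14.5% and 19.6%), and the part of these in the difference was not tested.

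The kallisto estimates per transcript added a difference in the kind of RNA. The comparison covered 24 of the 43 genes, whose annotation (GENCODE M21) held both protein-coding transcripts and others. Among the others were transcripts with a retained intron and targets of nonsense-mediated decay. The share of TPM in these other transcripts had a median in ΔleftPAL cells of 31.8% at rest and 11.4% after LPS, and of 36.7% and 10.1% in ΔIRIS cells. It was lower after LPS in both genotypes for 20 of the 24 genes (83.3%), and for 68.8% of the 5652 genes for which the same could be computed, whose medians were 30.8%, 20.7%, 29.5% and 18.5%.

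Among the synthetases 12 of 13 showed the lower share, Wars being the exception, at 6.96% and 8.25% in ΔleftPAL and 10.4% and 11% in ΔIRIS cells. In Farsa, a subunit of the phenylalanine enzyme, the share in the transcript Farsa-201, which codes for 508 residues, rose from 40.4% to 80.4% in ΔleftPAL and from 33.8% to 75.0% in ΔIRIS cells. Rars-201, which codes for the arginine enzyme of 660 residues, went from 66.0% to 91.2% and from 62.0% to 93.8%. In Yars, Yars-201 with 564 residues went from 37.5% to 63.7% and from 23.6% to 65.3%.

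Farsb, the other subunit of the phenylalanine enzyme, changed between coding transcripts. Farsb-201 and Farsb-202 both code for 589 residues, and Farsb-201 rose from 35.5% to 81.2% and from 39.8% to 82.3%, whereas Farsb-202 went from 38.4% to 8.05% and from 36.4% to 8.37%. For Vars the share outside coding transcripts was 46.1% and 27.9% in ΔleftPAL and 36.5% and 29.7% in ΔIRIS cells. For Slc1a5 it stayed high, at 71.3%, 55.4%, 75.3% and 61.5%. These are estimates without an interval, and reads from unspliced RNA, which total RNA libraries hold, cannot be told apart here from stable transcripts with a retained intron.

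**Figure D4:**
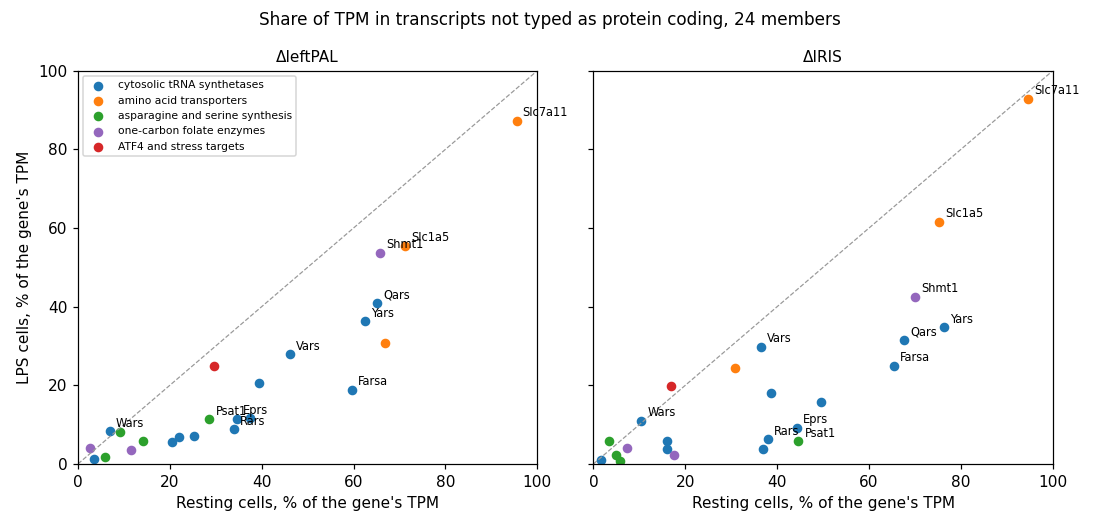
Each point is 1 of 24 genes, with the percentage of its TPM in transcripts not typed as protein coding in resting cells on the x axis and in LPS-activated cells on the y axis, for ΔleftPAL (left) and ΔIRIS (right), and a dashed line of equal shares. Most points lie below the line, Farsa, Rars, Eprs and Yars far below it, and Wars lies just above it in both genotypes.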

How the data were processed

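Per the labels and the study's methods, total RNA was depleted of ribosomal RNA, made into stranded libraries and sequenced as paired reads of 150 nt. The authors mapped reads with STAR 2.4.0a to mm10 and deposited raw fragment counts per gene name (Ensembl release 77) from featureCounts (Subread 1.4.6-p1), counted by strand. They also deposited kallisto (0.42.3) estimated counts and TPM per transcript, which were summed per gene here. TPM values were used without TMM factors. The row without a gene name (0.00876% to 0.0265% of counts) was left out. mt-Rnr2 took 19.6% of counts in resting ΔIRIS cells and 14.5% to 15.6% in the other libraries.

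Counts were scaled with TMM factors over all genes, and the 11286 genes that averaged 50 counts or more were fitted in edgeR 4.0.16 (R 4.3.3) by glmQLFit and glmQLFTest with genotype and condition as terms, which leaves 1 residual degree of freedom, with Benjamini-Hochberg adjustment over all genes. Of the 43 genes, 41 passed. Size calls used log2 values of CPM or TPM with 0.5 added, so that changes of low genes are understated. Ratios between 2 libraries have 95% Clopper-Pearson intervals (scipy 1.17.1) and no test. The p-values measure the spread between these libraries only. On simulated counts for 11286 genes the LPS fit called 98 of 100 genes changed 2-fold and 100 of 100 changed 4-fold. It also called 11 unchanged genes. In the data far more genes were called, 36.4% of all genes higher and 27.9% lower. How often calls in these 4 libraries are missed or wrong was not tested.

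Alternatives were DESeq2 1.42.0 size factors and its Wald test, total counts, TMM without immunoglobulin genes, Gapdh scaling, kallisto estimated counts and TPM, minima of 10 and 200 counts and none, a prior of 5 CPM, no genotype term, each genotype alone and each library left out. TMM over genes past the minimum was added after seeing the data. With a library left out, the genotype term would leave no residual degree of freedom, so those fits compared the remaining libraries by condition alone. In such a fit 1 condition held 1 library. The genes and lists were chosen with earlier results of these data known. Genes described in full were, in each role, those with the largest and smallest LPS change, those with opposite signs in the 2 genotypes, those under the minimum, those at least 1.5-fold apart between genotypes, and Atf4, and the other genes named with full values (among them Gars, Eprs, Aars, Sars, Slc7a5, Slc7a1, Slc7a6, Slc38a1, Phgdh, Shmt2, Mthfd2 and Mars) were chosen after their values were seen. The lists gave their largest and smallest change, and 1 gene of a list and the promoter sites of 1 gene are not reported here.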

Additional observations from a re-analysis of the deposited data

Results flagged for a closer look

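By gene counts the LPS change had opposite signs in the 2 genotypes for 5 of the 43 genes, and the difference was not tested because each group had 1 library. The log2 change in ΔIRIS minus that in ΔleftPAL cells was -0.60 for Slc3a2 (95% counting interval -0.71 to -0.48), 0.23 for Slc1a5 (0.11 to 0.35), -1.92 for Slc7a11 (-2.78 to -1.07), -0.87 for Trib3 (-2.19 to 0.45) and -0.68 for Sesn2 (-0.98 to -0.38). Among genes with enough counts this held for 4 of the 41 and for 11.3% of all genes. Sesn2 alone had both counting intervals off 0, and for the others the interval in 1 or both genotypes held 0. For Slc3a2 and Slc7a11 the largest of the 4 CPM values was that of the resting ΔIRIS library. By kallisto TPM the opposite signs were not seen for Slc3a2 (43.1, 37.8, 65.0 and 37.1), Slc1a5 (53.5, 40.4, 60.8 and 49.6) and Slc7a11 (5.62, 2.24, 4.76 and 1.71). These fell in both genotypes, whereas Trib3 and Sesn2 had opposite signs by TPM too. TPM carried no TMM factors, and the mean log2 change was lower by TPM also for Atf4, which has a single transcript (-0.64 against -0.39). The part of this shift in the turned signs of Slc3a2 and Slc1a5 was not tested.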

How the results depend on the processing

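The number of genes called higher after LPS was 32, with 31 to 33 in every alternative but Gapdh scaling, which gave 1, and 32 to 33 when each library was left out. The number called lower was 2, with 1 under TMM without immunoglobulin genes and without the genotype term, 3 under DESeq2 size factors, the DESeq2 Wald test and kallisto estimated counts, 34 under Gapdh scaling, and 1 to 4 when each library was left out. At least 2-fold higher in both genotypes were 26 genes, with 19 by kallisto TPM, 25 to 30 in the other alternatives and 0 under Gapdh scaling. At least 2-fold lower was 1 gene, with 22 under Gapdh scaling, 2 with kallisto TPM and 3 in ΔIRIS alone. At least 1.5-fold lower in resting ΔIRIS cells were 0 genes, and 1 with kallisto TPM. Of the 34 genes called, 33 kept their call in every setting that tested them other than Gapdh scaling, and Slc38a2 did not. TPM has no test, and Slc1a4 was not tested at the minimum of 200 counts.

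Under Gapdh scaling the all-gene median shifted by -2.81 on the log2 scale, which turned the sign of the LPS change of 32 genes. The log2 changes became -1.08 for Aars, -1.49 for Cars, -1.41 for Dars, -1.02 for Eprs, -1.81 for Farsa, -1.43 for Farsb, -0.82 for Gars, -0.93 for Hars, -1.19 for Iars, -0.91 for Kars, -1.11 for Lars, -1.15 for Mars, -1.21 for Nars, -1.79 for Qars, -1.26 for Rars, -1.87 for Sars, -0.93 for Tars, -2.60 for Vars, -2.13 for Wars and -0.71 for Yars. They became -1.08 for Slc7a5, -1.73 for Slc7a1, -1.77 for Slc7a6, -2.58 for Slc38a1, -0.0044 for Slc1a4, -0.34 for Phgdh, -0.64 for Psph, -0.58 for Shmt2, -0.10 for Mthfd2, -0.31 for Mthfd1, -1.03 for Mthfd1l and -2.69 for Sesn2. The resting genotype ratio of Slc7a11 became -0.16 with kallisto estimated counts and -0.22 with TPM, and the cause was not tested. DESeq2 size factors and TMM over genes past the minimum each moved the median of all genes by -0.14, and the share of higher calls among all calls went from 56.6% to 49.7% and 49.9%. Genes under 50 counts, such as Chac1 and Trib3, were limited by depth.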
